A study of Homo sapiens with 8 samples.

Results

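The genes described here are 10 human genes of ERK feedback and early growth response: DUSP2, DUSP4, DUSP5 and DUSP6, SPRED1 and SPRED2, SPRY2, EGR1, EGR2 and KLF6. They were chosen by name, with earlier results of these data known, so counts of them beside the background are given as description only. The RNA table used here had rows for 8 of the 10 among its 25377 genes, and 7 of these were among the 17013 genes with an adjusted p. DUSP4 and SPRY2 had no row in it, and DUSP6 had a row without an adjusted p. In the ATAC table, which scores open chromatin by transposase insertion, 81 of 70312 peaks had one of the 10 as the gene with the nearest start site, and each of the 10 genes had at least 2 of them.

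The cells were Raji, an established Burkitt lymphoma B cell line, in 2 genotypes. One was wild type. The other, the RGS-SE knockout, had been electroporated with a Cas9 vector and a pair of guide plasmids against a super-enhancer at RGS1 and RGS13 on chromosome 1 (192515157 to 192741754, hg38), kept under puromycin for a short time and isolated as single clones. The labels do not give the number of clones or say whether wild-type cells were electroporated, selected or cloned, so genotype cannot be told apart from clone or handling. Poly(A) RNA and ATAC libraries were each made from 2 wild-type and 2 knockout samples, 8 in all, with 50000 cells per ATAC library.

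ERK is the last kinase of the RAS, RAF and MEK cascade, which in B cells runs downstream of the antigen receptor and of G protein-coupled receptors. Active ERK switches on immediate early transcription factors such as EGR1 and EGR2 through serum response factor and its ETS partners, and also switches on its own brakes. DUSP2, DUSP4, DUSP5 and DUSP6 remove phosphate from MAP kinases, DUSP5 in the nucleus and DUSP6 in the cytoplasm, while SPRED and SPRY proteins act further up, at RAS and RAF. KLF6 is a zinc finger transcription factor that is induced early in many cells.

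Both tables hold the authors' DESeq2 results, with no column for a single library. For RNA, reads per library could be recovered from the mean normalised count, which is given to 15 digits. A gene with 1 read in 1 library has a mean set by that library's size factor, and such genes gave size factors of 1.30 and 0.717 in wild type and 1.07 and 1.03 in the knockout. For all 8 members with a row exactly 1 set of 4 whole read numbers gave the deposited mean, and where no library was at 0 the log2 ratio of the genotypes then differed from the authors' fitted value by at most 0.00251. The sign of the fold change told the genotype of each library but not its replicate number, so the libraries of a genotype are called deeper and shallower. For ATAC, no size factors were recovered, and each level is a normalised count fitted for a genotype from the mean and the fold change. Spread between samples enters the tests through the standard error (SE) of each log2 fold change. The headers do not say which genotype is the numerator. A positive value was read as higher in the knockout, because the peak of the targeted interval at 192609102 to 192609836 had -11.71 (SE 1.45, per the authors' deposited table), a fitted 622 against 0.186 normalised counts, and the opposite reading would turn every direction given here. In the same table the other 17 peaks of the interval lay at or above -0.97, so the reading rests on this 1 peak. Under it the RNA of RGS1, a gene inside the interval, was higher in the knockout, by 3.49 (SE 0.18, adjusted p 7.54e-79) in that table. RNA was taken to have the same numerator as ATAC, which was not tested. The RNA directions and the genotypes of the recovered libraries rest on this, and those of RNA alone could turn. B cell markers were present, with 7 of 7 in the RNA table at mean normalised counts of 2529 to 27701, of which MS4A1 and BLK were higher, the latter turning to -0.39 once centred on the ATAC median around it, and CD79B lower. Markers of T, NK, myeloid, epithelial, stromal and erythroid cells had 7 of 12 rows, at means of 1.35 to 203 and a summed fitted count of 141 in wild type and 313 in the knockout. The highest of them, COL1A1, rose by 1.10 (SE 0.37, adjusted p 0.0180), while CD3D, CD4, CD8A, GNLY and EPCAM had no row, and the part of these markers in the results was not tested.

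Some promoters of the members are shown first, from RefSeq (GRCh38.p14). EGR1 and EGR2 are shown for the CArG boxes through which serum response factor acts. The SPRED genes are shown because their start sites had the lowest promoter values of the members. Whether these sequences bear on the changes was not tested. Of the 10 members, 8 had entries, 13 start sites in all, and DUSP4 and DUSP5 had none. The 250 bases before each start were searched on both strands for the SRF CArG box, TGACG (cAMP response element core), TGANTCA (AP-1), CCGGAA (ETS), GCGNGGGCG (EGR) and GGGANTTCC (NF-kB), and capitals mark the matches, none of which overlapped another. Bases that GENCODE places in an exon of the gene next to the start were left off. Each is written 5′ to 3′ on the strand of the gene.
EGR1, chr5:138465229-138465478, plus strand: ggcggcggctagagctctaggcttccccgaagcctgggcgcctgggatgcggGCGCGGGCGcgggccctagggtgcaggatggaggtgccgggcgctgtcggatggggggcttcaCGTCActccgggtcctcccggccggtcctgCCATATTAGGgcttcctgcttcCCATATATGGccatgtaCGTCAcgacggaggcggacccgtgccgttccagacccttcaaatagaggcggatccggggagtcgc
EGR2, chr10:62816367-62816616 (the first 243 bases), minus strand: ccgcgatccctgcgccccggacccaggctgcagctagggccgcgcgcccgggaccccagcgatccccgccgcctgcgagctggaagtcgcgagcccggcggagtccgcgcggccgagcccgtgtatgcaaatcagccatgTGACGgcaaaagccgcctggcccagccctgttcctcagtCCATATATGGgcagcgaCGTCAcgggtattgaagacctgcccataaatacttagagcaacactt
SPRED2, upstream start, chr2:65432600-65432849 (the first 212 bases), minus strand: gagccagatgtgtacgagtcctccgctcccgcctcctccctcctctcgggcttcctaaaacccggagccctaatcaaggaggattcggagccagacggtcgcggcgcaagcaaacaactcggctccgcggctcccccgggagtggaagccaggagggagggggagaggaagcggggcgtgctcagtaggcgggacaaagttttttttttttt
SPRED2, internal start, chr2:65366779-65367028, minus strand: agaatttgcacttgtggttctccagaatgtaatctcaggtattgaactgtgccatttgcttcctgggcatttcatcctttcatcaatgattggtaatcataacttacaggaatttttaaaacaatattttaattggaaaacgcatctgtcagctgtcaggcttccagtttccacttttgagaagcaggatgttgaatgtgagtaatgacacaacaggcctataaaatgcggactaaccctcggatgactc
SPRED1, chr15:38252586-38252835, plus strand: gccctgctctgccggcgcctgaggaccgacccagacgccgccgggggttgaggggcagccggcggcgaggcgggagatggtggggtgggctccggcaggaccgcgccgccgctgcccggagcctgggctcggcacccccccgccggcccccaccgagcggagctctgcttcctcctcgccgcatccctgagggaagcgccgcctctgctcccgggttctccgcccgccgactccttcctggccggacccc

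EGR1 had 5 matches, 2 of them CArG boxes whose first bases lay 105 and 83 bases before the start. EGR2 had 3 matches with 1 CArG box 71 bases before the start, and the letters CCATATATGG stood in both genes. CArG boxes were in 2 of the 13 start sites of members, against 1.16% of 35116 promoters of the same length in the table. The EGR motif was in 4 of 13, at DUSP2, EGR1, KLF6 and SPRY2, against 8.41%, and TGACG in 3 of 13, against 21.2%. The KLF6 match began 65 bases before the start, among 72 bases that GENCODE places in an exon of KLF6. Such bases were searched and counted, though left off where a window is printed. The ETS core was in 1 of 13, at SPRY2, against 14.5%. AP-1 and NF-kB letters were in 0 of 13, against 6.57% and 1.59%. The SPRED1 window and both SPRED2 windows held none of the 6 motifs, which says only that these letters are not in these windows.

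In RNA, the feedback genes moved in both directions. DUSP5 and KLF6 rose in the knockout, SPRED2 and SPRED1 fell, and DUSP2, EGR1 and EGR2 did not pass the threshold, an adjusted p under 0.05 in the authors' DESeq2 Wald test over all tested genes. That is 2 higher and 2 lower of 7 tested members, against 19.2% of all tested genes past the threshold, 9.89% higher and 9.28% lower. Among genes with a mean of at least 100, which leaves out EGR2, the share was 28.8%. The median of the 7 log2 fold changes was -0.28, against 0.02 over all tested genes. Where the libraries of the 2 genotypes did not overlap, this is given below only as a description. With 2 libraries per genotype it is a weak sign. It was seen for DUSP2 too, at an adjusted p of 0.689 in that Wald test, and its share over all genes was not computed.

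**Figure D1:**
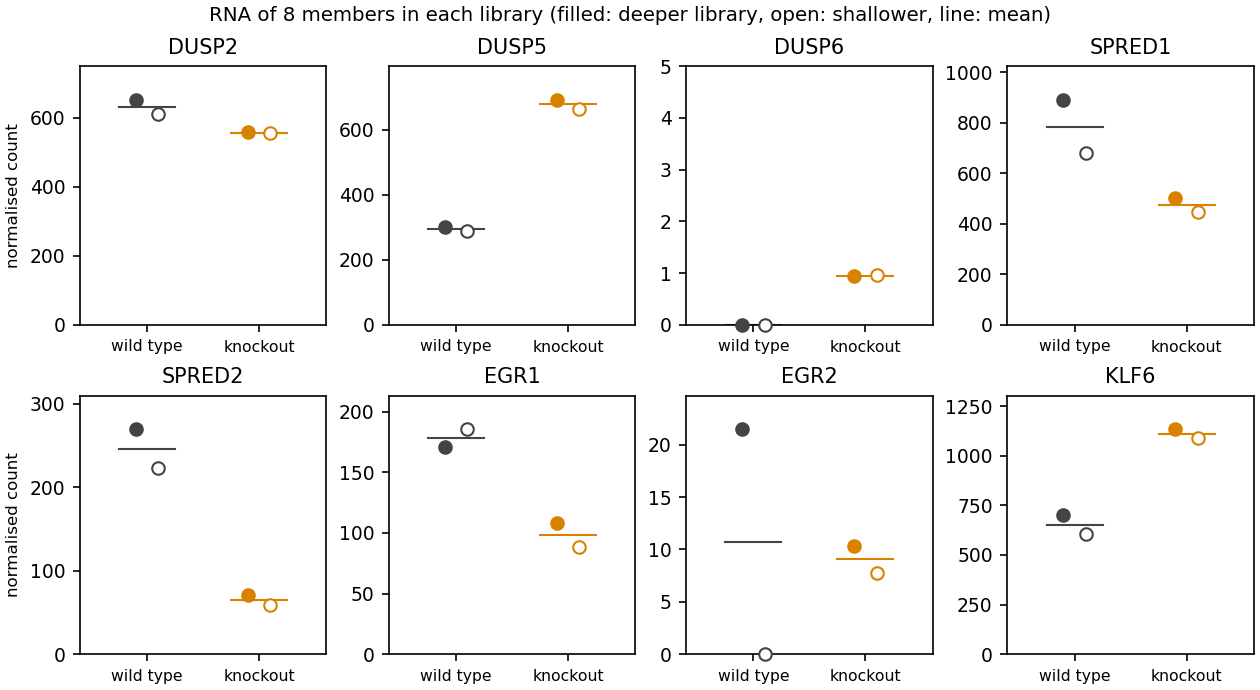
RNA of the 8 members with a row, as normalised counts recovered for each library on a linear axis from 0, with wild type in black, the knockout in orange, the deeper library filled, the shallower open and a line at the mean. The knockout points of DUSP5 and KLF6 are above both wild-type points and those of SPRED1 and SPRED2 below both. Those of DUSP2 and EGR1, which did not pass the threshold, are also below both. EGR2 has wild-type libraries at 21.5 and 0, and DUSP6 is at most 1 read in any library.

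Per kb of GENCODE exon, DUSP2 was the most abundant member and DUSP6 the least. In wild type DUSP2 had 316 and 337 normalised counts per kb in its 2 libraries, DUSP5 114 and 119, KLF6 98.6 and 114 and SPRED1 87.7 and 115. EGR1 followed with 54.6 and 59.1, SPRED2 with 40.5 and 48.9 and EGR2 with 0 and 5.80 per kb. SPRED1 overlapped KLF6 and DUSP5 in this order, while no other pair of those just named overlapped. DUSP6 had 0 in both wild-type libraries, as EGR2 had in its shallower one, so their order in wild type rests on the deeper library. In the knockout the order was the same without any overlap between neighbours, with DUSP2 at 287 and 289 per kb, DUSP5 close behind at 262 and 273, KLF6 at 177 and 185 and SPRED2 at 10.8 and 13.0.

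Among the phosphatases, DUSP5, the nuclear phosphatase of ERK on chromosome 10 at 110497907 to 110511533, had 393 and 208 reads in the deeper and shallower wild-type library and, in the same order, 737 and 684 in the knockout. Divided by the size factors these are 302 and 290 against 692 and 664 normalised counts, so the libraries of a genotype lay close together and far from the others. DUSP5 rose 2.29-fold, by 1.20 log2 units (SE 0.25, adjusted p 4.45e-05, per the authors' deposited table).

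DUSP2, an ERK and p38 phosphatase made in activated lymphocytes, had 651 and 610 normalised counts in wild type and 558 and 555 in the knockout. Both knockout libraries were a little lower, with a value of -0.18 (SE 0.24, adjusted p 0.689, per the authors' deposited table) and a 95% interval from -0.64 to 0.28. DUSP6, the cytoplasmic ERK phosphatase on chromosome 12, had 0 reads in both wild-type libraries and 1 read in each knockout library. At 3 reads, the limit that a count of 0 allows, the wild-type libraries could hold 2.30 and 4.18 normalised counts, so no difference was detectable at this depth. Of its exon bases 28.6% overlap a noncoding gene on the opposite strand, ENSG00000274021.

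Of the inhibitors that act on RAS and RAF, both SPRED members fell, while SPRY2 had no RNA row. SPRED2, on chromosome 2 at 65310851 to 65432637, had 351 and 160 reads in wild type and 76 and 61 in the knockout, or 269 and 223 against 71.3 and 59.2 normalised counts. Both knockout libraries were far below both wild-type libraries. It fell by 1.92 log2 units (SE 0.41, adjusted p 6.00e-05, per the authors' deposited table), a 3.78-fold difference and the lowest value of the tested members. With each library left out in turn the log2 ratio of the genotype means stayed between -2.06 and -1.77.

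SPRED1, its paralogue on chromosome 15 at 38252836 to 38357249, had 889 and 679 normalised counts in wild type and 501 and 447 in the knockout. The genotypes did not overlap, but the wild-type libraries lay further apart than those of DUSP5. SPRED1 fell by 0.73 (SE 0.25, adjusted p 0.0224, per the authors' deposited table), a 1.66-fold difference, and leaving out each library in turn gave log2 ratios from -0.91 to -0.52.

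Of the transcription factors, KLF6, on chromosome 10 at 3775996 to 3785281, had 701 and 605 normalised counts in wild type and 1134 and 1089 in the knockout, with both knockout libraries above both others. It rose 1.70-fold, by 0.76 (SE 0.21, adjusted p 0.00344), per the authors' deposited table.

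EGR1, a growth factor-induced zinc finger factor on chromosome 5 at 138465479 to 138469303, had 223 and 133 reads in wild type and 115 and 91 in the knockout, or 171 and 186 against 108 and 88.4 normalised counts. The genotypes did not overlap, which was also so for DUSP2. Its log2 fold change of -0.86 (SE 0.42) had an adjusted p of 0.151 in the authors' deposited table, so it did not pass the threshold, and its 95% interval ran from -1.69 to -0.03.

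EGR2, its relative on the long arm of chromosome 10, had 28 reads in the deeper wild-type library and 0 in the shallower, and 11 and 8 in the knockout libraries. That is 21.5 and at most 4.18 normalised counts (the limit that a count of 0 allows) in wild type, with the knockout between them at 10.3 and 7.77. The wild-type libraries thus differed from each other by more than the genotypes did, and the log2 fold change was -0.28 (SE 1.75, adjusted p 0.952, per the authors' deposited table). EGR1 had no such gap between its wild-type libraries.

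The 4 calls were not equally firm. In a test against a 1.5-fold change, recomputed from the DESeq2 fold change and SE, the adjusted p was 0.0344 for SPRED2 and 0.257 for DUSP5, and it was 1 for KLF6 and SPRED1. With Wald statistics divided by their robust SD over all genes 0 members passed, with 2 higher and 1 lower at an unadjusted p under 0.05 (adjusted p for SPRED2 0.111, DUSP5 0.102, KLF6 0.344, SPRED1 0.553), and after centring on the local ATAC median SPRED1 had an adjusted p of 0.0677.

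**Figure D2:**
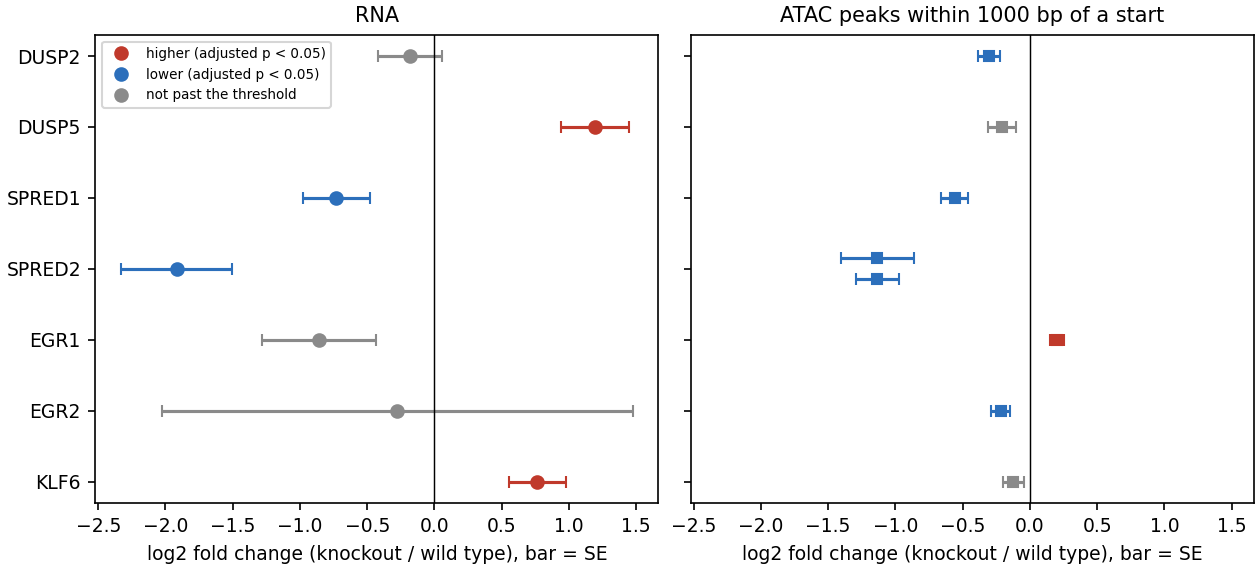
Log2 fold change, knockout over wild type, of RNA (left, circles) and of each ATAC peak centred within 1000 bp of a start (right, squares) for 7 members, with bars of 1 SE and colour for the call. SPRED1 and SPRED2 are lower on both sides, while DUSP5 and KLF6 are higher in RNA with promoter peaks a little under 0, and EGR1 is under 0 in RNA with a promoter peak slightly above it.

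At promoters, accessibility fell at SPRED2, SPRED1, DUSP2 and EGR2 and rose at EGR1. A promoter peak here is one with its centre within 1000 bp of a start site. The members had 8 such peaks in 7 genes, of which 1 was higher and 5 lower. Over all promoter peaks 33.7% were past the threshold, 14.7% higher and 19% lower. The members' promoter peaks had a median mean normalised count of 873, against 679 over all promoter peaks, and their median log2 fold change was -0.26 against -0.05.

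Both SPRED2 start sites lost accessibility. The peak at the upstream start, chr2:65432388-65433083, went from a fitted 404 normalised counts in wild type to 184 in the knockout, with -1.13 (SE 0.16, adjusted p 2.09e-11, per the authors' deposited table). The peak at the internal start, chr2:65366446-65366858, annotated to the 5′ UTR of the shorter transcript, went from 127 to 58.1, again -1.13 (SE 0.27, adjusted p 2.16e-04, per the authors' deposited table). A neighbouring peak 1392 bp inside the upstream start, in the first intron and with a mean of 840, had -0.08 (SE 0.09, adjusted p 0.529) in that table.

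At SPRED1 the promoter peak, chr15:38251291-38252716, went from 887 to 602 fitted normalised counts and fell by 0.56 (SE 0.10, adjusted p 1.32e-07, per the authors' deposited table). DUSP2 had a smaller drop at its promoter, chr2:96145190-96145799, from 1107 to 897, with -0.30 (SE 0.08, adjusted p 0.00117, per the authors' deposited table). A peak 1100 bp upstream of DUSP2 moved the other way, from 1029 to 1240, with 0.27 (SE 0.08, adjusted p 0.00249) there. DUSP2 RNA did not pass the threshold in either direction.

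The EGR1 promoter peak, chr5:138464034-138465795, had the highest mean of the 81 peaks, at 2831. It covers the window with the 2 CArG boxes printed above and rose from 2634 to 3029, by 0.20 (SE 0.05, adjusted p 4.06e-04, per the authors' deposited table). The EGR2 promoter peak, chr10:62816292-62817446, which covers the EGR2 window with its CArG box, went from 1430 to 1231, with -0.22 (SE 0.07, adjusted p 0.00949) in the same table. The promoter peaks of DUSP5 and KLF6, the members with higher RNA, had -0.21 (SE 0.11, adjusted p 0.113) and -0.12 (SE 0.08, adjusted p 0.237) in that table. DUSP4, DUSP6 and SPRY2 had no peak within 1000 bp of a start among those used here. For DUSP6 this stood beside RNA of 2 reads in all 4 libraries, and SPRY2 and DUSP4 had no RNA row.

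Only the upstream SPRED2 peak also passed the test against a 1.5-fold change among these 8 (adjusted p 0.00847), and 0 passed with scaled DESeq2 statistics (the upstream SPRED2 peak at 0.0869), where 0 higher and 2 lower had an unadjusted p under 0.05. The EGR2 promoter had an adjusted p of 0.0501 after centring on the chromosome median, and the KLF6 promoter passed only after centring on its local median, at -0.29 with 0.00175.

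**Figure D3:**
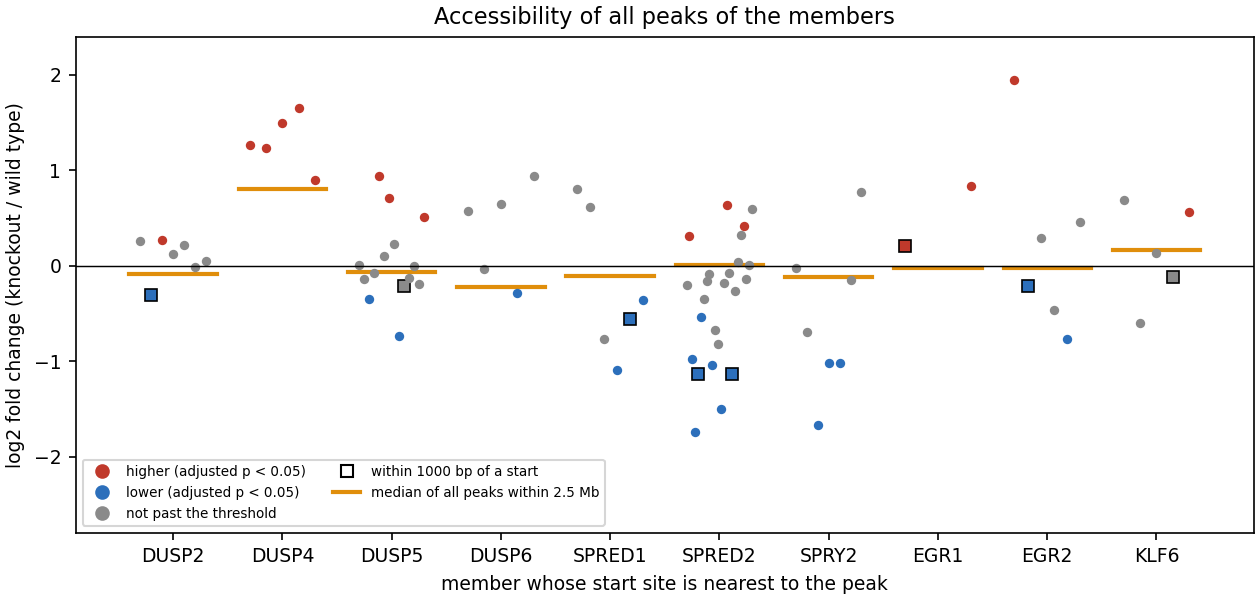
Log2 fold change, knockout over wild type, of each of the 81 ATAC peaks by the member with the nearest start, ordered along the chromosome within a member, with squares for peaks within 1000 bp of a start and an orange line for the median of all peaks within 2.5 Mb of the member's start. All 5 DUSP4 peaks are above 0 and so is their local median of 0.80, while SPRED2 has both its promoter squares at -1.13 and a local median of 0.01.

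Over all distances, 16 of the 81 peaks were higher and 19 lower. Of all 70312 peaks 35.9% were past the threshold, 20.4% higher and 15.5% lower. The 81 had a median log2 fold change of -0.04, against -0.01 over all peaks, and ranged from -1.75 to 1.95. A peak is assigned here to the nearest start site, which need not be the gene it acts on. The peaks described include some outside the rule for named peaks that were chosen after their values were seen. These are the SPRED2 peaks 23.5 kb and 1392 bp inside the upstream start and 15.7 kb and 43.5 kb past the internal start. Also among them are the DUSP4 peaks other than the one 179.2 kb upstream, and the DUSP5 peak 71.8 kb upstream. The last are the SPRED1 peak 14.3 kb upstream, the SPRY2 peak 111.4 kb upstream and the downstream peak of EGR2.

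SPRED2 had the most peaks, 24, and its lower peaks lay in the gene. Of 16 peaks overlapping the gene 7 were lower, 2 higher and 7 not past the threshold, and of 8 outside it 0 were lower and 1 higher by the DESeq2 Wald test, with the same 0 and 1 at an unadjusted p under 0.05. Over all peaks 15.5% were lower and 20.4% higher. Whether the inside and outside counts differ was not tested. The lowest of the 81 lay in an intron, chr2:65364934-65365831, 1395 bp past the internal start, and went from a fitted 250 normalised counts in wild type to 74.6 in the knockout. It had -1.75 (SE 0.21, adjusted p 1.16e-14, per the authors' deposited table), and it passed with scaled statistics too (0.0328). The middle 200 bases of that peak, the site with the lowest value at any member, hold none of the 6 motifs and are given on the plus strand of hg38.
SPRED2 intron, chr2:65365282-65365481: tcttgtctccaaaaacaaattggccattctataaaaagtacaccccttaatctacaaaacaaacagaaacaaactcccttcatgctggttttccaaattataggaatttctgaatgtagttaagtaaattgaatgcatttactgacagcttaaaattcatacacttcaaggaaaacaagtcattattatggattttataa
Further intronic peaks of SPRED2 had -1.50 (SE 0.38) at 23.5 kb inside the upstream start, -1.05 (SE 0.23) at 27.5 kb before the internal start and -0.98 (SE 0.31) at 15.7 kb past it in the authors' deposited table. The intronic peak 11.6 kb inside the upstream start went the other way, from 103 to 161, with 0.63 (SE 0.22, adjusted p 0.0160) in that table. So did the intronic peak 43.5 kb past the internal start, from 521 to 645, with 0.31 (SE 0.11, adjusted p 0.0133) there.

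**Figure D4:**
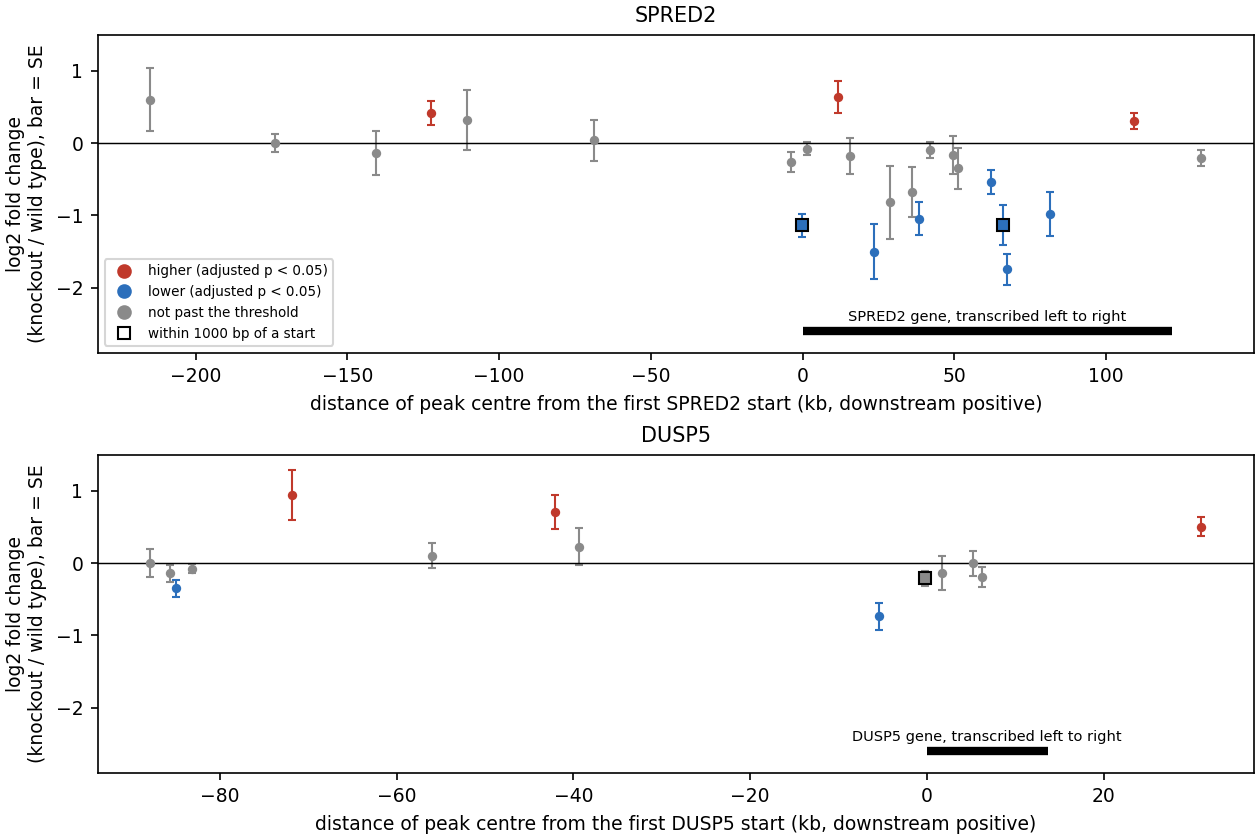
Log2 fold change, knockout over wild type, with bars of 1 SE, of the 24 peaks of SPRED2 (top) and the 14 of DUSP5 (bottom) against the distance of the peak centre from the first annotated start, in kb and positive downstream, with the gene as a black bar. The 7 lower SPRED2 peaks all lie over the gene, while the peaks over DUSP5 did not pass the threshold and its called peaks lie outside.

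DUSP5 had 14 peaks, 3 higher, 2 lower and 9 not past the threshold. The 4 that overlap the gene lay between -0.21 and 0.00 and 0 of them passed the DESeq2 Wald test, with 1 lower at an unadjusted p under 0.05. The higher peaks lay 71.8 kb and 42.1 kb upstream, at 0.94 (SE 0.35) and 0.71 (SE 0.24), and 31.0 kb downstream of the start, at 0.51 (SE 0.13, adjusted p 7.37e-04, per the authors' deposited table). The peak 5.4 kb upstream of DUSP5, chr10:110492144-110492796, went from 252 to 151 and fell by 0.74 (SE 0.18, adjusted p 3.32e-04) in that table. KLF6 had 1 higher peak of 5, 20.5 kb upstream, with 0.56 (SE 0.21, adjusted p 0.0264, per the authors' deposited table), which no longer passed once centred on the local median (0.159).

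All 5 peaks of DUSP4, a nuclear phosphatase of ERK, were higher, with log2 fold changes from 0.90 to 1.65 in the authors' deposited table. The largest in mean, 179.2 kb upstream, went from 158 to 295 fitted normalised counts. Open chromatin around them moved too. The median over 134 peaks within 2.5 Mb of the DUSP4 start was 0.80, against 0.14 for all of chromosome 8, and after centring on the local median 0 of the 5 passed the threshold (recomputed from the DESeq2 values, adjusted p 0.0529 to 0.747, with 2 higher at an unadjusted p under 0.05). For the other 9 members the local median lay between -0.23 and 0.17.

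SPRY2, a RAS and RAF antagonist on chromosome 13, had 7 peaks, all upstream of its start and 1.7 kb or more away, with 3 lower and 0 higher by the DESeq2 Wald test (4 and 1 at an unadjusted p under 0.05). The peak 59.2 kb upstream, chr13:80399264-80401425, went from 329 to 104 and fell by 1.67 (SE 0.19, adjusted p 2.64e-17, per the authors' deposited table). That call also held against a 1.5-fold change and with scaled statistics (0.0146). Those at 103.4 kb and 111.4 kb upstream had -1.02 (SE 0.24) and -1.02 (SE 0.40) there. SPRED1 had 3 lower peaks of 6, the promoter, one 1.7 kb into the first intron at -0.36 (SE 0.14, adjusted p 0.0299) and one 14.3 kb upstream at -1.09 (SE 0.42, adjusted p 0.0268, per the authors' deposited table). The last 2 did not pass after centring on the local median.

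At the early growth response genes, both EGR1 peaks were higher. The peak 28.0 kb past the start of EGR1 went from 94.2 to 168, with 0.83 (SE 0.24, adjusted p 0.00195, per the authors' deposited table). EGR2 had the highest value of the 81 peaks, at a site beyond the end of the gene, chr10:62810856-62811800. It went from a fitted 38.5 to 149 normalised counts and rose by 1.95 (SE 0.29, adjusted p 5.17e-10) in that table, and it passed the test against a 1.5-fold change (9.06e-05) but not with scaled statistics (0.131). An intergenic EGR2 peak 34.1 kb upstream had -0.77 (SE 0.23, adjusted p 0.00302) there. The middle 200 bases of the downstream peak, shown because it had the largest gain at a member, are given on the plus strand of hg38 and hold 1 match in capitals, which reads TGACG on the minus strand. TGACG was in 9.28% of the middle 200 bases of all peaks.
EGR2 downstream, chr10:62811228-62811427: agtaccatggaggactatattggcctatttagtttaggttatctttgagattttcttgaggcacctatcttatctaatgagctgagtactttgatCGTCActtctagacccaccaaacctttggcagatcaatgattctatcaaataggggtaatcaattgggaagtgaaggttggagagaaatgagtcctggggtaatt
DUSP6 had 5 peaks and 1 lower, 5.9 kb past a start and just beyond the end of the gene, with -0.29 (SE 0.10, adjusted p 0.0162, per the authors' deposited table). Its local median was -0.23, and after centring it had -0.06 (0.710).

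The rest of the pathway was read from lists of genes around the members, also chosen with earlier results of these data known. Of the cascade itself, from RAS to ERK and its ribosomal S6 kinases, 1 of 14 tested genes was higher and 2 lower, against the same 19.2% over all genes. These 14 had means from 529 to 4278. At a minimum mean of 100 the counts were 2 and 2 of 14, against 28.8% of all genes with such means. HRAS, a RAS GTPase, fell by 1.26 (SE 0.25, adjusted p 9.88e-06) and KSR1, a scaffold for RAF and MEK, by 0.88 (SE 0.26, per the authors' deposited table). RPS6KA3, a kinase that ERK activates, rose by 0.83 (SE 0.19) in that table. The 11 others, among them the genes of RAF, MEK and ERK, did not pass.

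Of the genes that load or unload RAS, 2 of 14 were higher and 4 lower, against 9.89% and 9.28% over all genes, the shares beside which the counts of the lists that follow also stand. DAB2IP, a RAS GTPase-activating protein, had 26.1 and 29.3 normalised counts in wild type and 169 and 194 in the knockout and rose by 2.72 (SE 0.51, adjusted p 1.94e-06), and RASAL1, of the same class, by 1.53 (SE 0.40, per the authors' deposited table). RASA3, also of that class, was lower, with 62 and 40 reads in wild type and 0 and 4 in the knockout (adjusted p 9.67e-04 in that table).

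Other ERK feedback regulators had 0 higher and 2 lower of 7 tested by the DESeq2 Wald test, the same counts as at an unadjusted p under 0.05. DUSP7, a cytoplasmic ERK phosphatase, fell by 0.72 (SE 0.22, adjusted p 0.00857) and PEA15, which holds ERK in the cytoplasm, by 0.47 (SE 0.18, adjusted p 0.0442, per the authors' deposited table). The call of PEA15 ended after local centring (0.163) and without a filter on low means (0.0659). Phosphatases best known for JNK and p38 or other targets had 2 higher and 0 lower of 5, also the counts at an unadjusted p under 0.05. DUSP10, which acts on JNK and p38, had 292 and 372 normalised counts in wild type and 1080 and 1031 in the knockout and rose by 1.67 (SE 0.24, adjusted p 1.63e-10), and DUSP22 by 0.77 (SE 0.17, adjusted p 6.25e-05, per the authors' deposited table). DUSP22 had 0.41 (adjusted p 0.0663) after centring on the chromosome median and 0.47 after centring on the local one, where it still passed (adjusted p 0.0330).

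Relatives and partners of the transcription factors had 0 higher and 2 lower of 7, again as at an unadjusted p under 0.05. NAB2, a corepressor that binds EGR proteins and is itself an EGR target, had 383 and 519 normalised counts in wild type and 145 and 164 in the knockout and fell by 1.54 (SE 0.32, adjusted p 3.03e-05), and KLF12 by 0.80 (SE 0.20, per the authors' deposited table). Other immediate early genes had 2 higher and 2 lower of 17, close to the background, with CD69, a lymphocyte activation marker, at 1.58 (SE 0.42) and IER3 at 2.49 (SE 0.96), and NR4A1, an orphan nuclear receptor induced by antigen receptor signals, at -2.37 (SE 0.87) and IER2 at -0.63 (SE 0.22), all past the threshold in that table. IER3 had 5 and 11 reads in wild type and 49 and 59 in the knockout. Its log2 ratio was 1.75 without the deeper wild-type library and 3.75 without the shallower, and its adjusted p of 0.0488 became 0.0648 after local centring, 0.107 after chromosome centring and 0.0728 without a filter on low means. NR4A1 had 0.0532 without that filter. Of SRF, its partners and the ETS factors, 2 of 8 were higher and 1 lower. SRF, which binds CArG boxes, fell by 0.73 (SE 0.19, adjusted p 0.00189), while MRTFB, its coactivator, rose by 1.23 (SE 0.26) and ETS1 by 0.43 (SE 0.15, per the authors' deposited table). After centring on the local ATAC median MRTFB had 0.23 (adjusted p 0.639) and ETS1 0.33 (0.112).

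**Figure D5:**
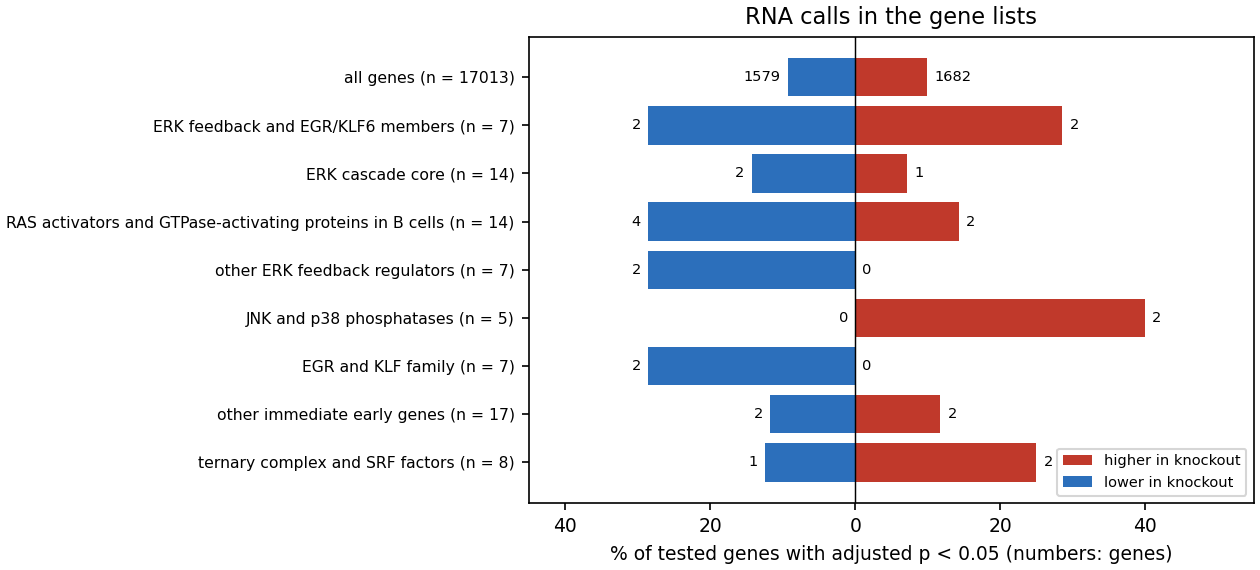
Share of tested genes past the threshold in each list, higher in the knockout to the right in red and lower to the left in blue, with the number of genes at each bar and the number tested in brackets. The members have 2 genes on either side, and lists of 5 to 17 tested genes stand beside 17013 in all.

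Over the 7 lists beside the members, 9 of 72 tested genes were higher and 13 lower, against 19.2% past the threshold over all genes. That share includes many genes of low mean. At a minimum mean of 100, 9 of 58 list genes were higher and 12 lower, against 28.8% of all genes with such means. With scaled statistics 2 were higher, DUSP10 and DAB2IP, and 0 lower (7 and 8 at an unadjusted p under 0.05), and against a 1.5-fold change the counts were 2 and 1, both recomputed from the DESeq2 values. Over all genes 3.94% passed under either setting, so these 2 and 3 genes of 72 are near the background.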

How the data were processed

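Raji RNA-seq and ATAC-seq were each deposited as a table of the authors' DESeq2 results over 2 wild-type and 2 knockout libraries. Per the submitters' processing notes, reads were handled with STAR, featureCounts, Bowtie2 and HOMER after Trim Galore, Trimmomatic or cutadapt, on GRCh38 or hg38. Tool versions, settings and the peak caller: not given in the sources used here. The authors' signal, per the file headers, is the mean normalised count of the 4 libraries. Beside it the authors give a log2 fold change with its SE, the Wald score (within 1.24e-13 of fold change over SE), the p-value, its Benjamini-Hochberg adjustment and, as another unit, the distance in bp to the nearest start. Summed means were 3.28e+07 for RNA and 1.99e+07 for ATAC, and ATAC depth per library is unknown. The 8364 genes without adjusted p had means of at most 4.30.

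RNA reads per library were recovered from the deposited mean. Below a mean of 0.75, each of 3772 genes was a sum of 4 single-read steps within 1e-09, the genotype of each step being the sign of the deposited fold change. For each member, and for 14 named list genes of lower mean, every set of 4 whole numbers was searched whose mean was the deposited one within a relative 5e-15 and, at means of 20 or more, whose genotype ratio was within 0.1 log2 of the deposited fold change; the search was first tested on simulated data. This step was added after the data were seen, and its reads serve to describe, with no test fitted to them.

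Calls use the authors' adjusted p under 0.05. Fitted counts take each genotype as 2 of 4 libraries. All intervals are 95% normal intervals from the SE. Exon lengths and gene positions are from GENCODE 44. Alternatives were computed in Python 3.11.15 with scipy 1.17.1, and of these only the test against a 1.5-fold change was tried on simulated data. They were a Wald test against a 1.5-fold change and statistics divided by their robust SD (1.70 for RNA, 2.46 for ATAC). Others were centring on the median ATAC log2 fold change within 2.5 Mb (at least 20 peaks) or of the chromosome. The last were no filter on low means, a minimum mean of 100, and an adjusted p under 0.01. The members and lists were chosen with earlier results of these data known. Named were all members, up to 4 genes per other list with the smallest adjusted p among those past the threshold (up to 2 where none passed), every promoter peak, and up to 3 other called peaks per member with the largest change and a mean of at least the median peak, 110.8. One gene that the rule names is not reported here. The series calls the replicates biological without naming separate cultures or clones, so p-values measure the spread between these samples, which may be technical.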

Additional observations from a re-analysis of the deposited data

How the results depend on the processing

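No paired analysis was possible because the tables carry no replicate numbers. Fits across all genes without a replicate or with edgeR were not run, since reads were recovered only for the members and some list genes. Leaving out each library in turn, the log2 ratio of recovered RNA means ranged from 1.17 to 1.23 for DUSP5, from 0.67 to 0.88 for KLF6, from -0.91 to -0.52 for SPRED1, from -2.06 to -1.77 for SPRED2, from -0.23 to -0.13 for DUSP2 and from -1.01 to -0.72 for EGR1, and EGR2 rests on the deeper wild-type library, which held all 28 wild-type reads. Among the members' RNA, 2 higher and 2 lower became 0 and 0 with scaled statistics (2 and 1 at an unadjusted p under 0.05), and 0 and 1 against a 1.5-fold change (1 and 1 unadjusted). The lower count was 1 at an adjusted p under 0.01 and 1 after local centring, both times without SPRED1. The members' 16 higher and 19 lower peaks became 0 and 2 with scaled statistics (3 and 4 unadjusted) and 2 and 3 against a 1.5-fold change. Over all peaks 3.38% passed with scaled statistics and 8.75% against a 1.5-fold change, so these shares of the 81 were not above the background. Over all genes 3.94% passed under either setting. At an adjusted p under 0.01, 9 were higher and 14 lower, against 26.6% of all peaks past it. Within 50 kb of a start 10 of 52 peaks were higher and 15 lower at the main threshold. Beside these stand 33.7% past it of all promoter peaks and 35.2% of all peaks 1 to 50 kb away. The promoter counts of 1 and 5 became 0 and 0 with scaled statistics (0 and 2 unadjusted), 0 and 1 against a 1.5-fold change, and 0 and 3 for the 5 peaks within 500 bp. Counts under the remaining settings were within 1.5 times the main ones. No member gene or called member peak changed direction; of the other named genes BLK did, at -0.39 after local centring. Tests of the lists under these settings were added after the data were seen. Over all peaks 56.8% of calls were higher, against 70.7% for the 1.5-fold test and 67.2% with scaled statistics. Low means limit EGR2 and DUSP6 RNA. With 2 libraries per genotype and clones of unstated number, the spread between clones was not tested.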
